A study of Mus musculus with 6 samples.

Results

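The genes described here carry fatty acids into muscle cells and break them down. They were given as a list of 33 symbols drawn up by role, with no cutoff on their measured values, though earlier results of these data were known when the list was made. For each gene the probe set that names it alone was taken, or the brightest such probe set over all 6 arrays. Of the 33 genes, 29 were found this way among 18820 named genes in all. The synthetase Acsl1 was not in the annotation used, and Acsl3, Cpt1b and Acadvl lie on probe sets that also name another gene, so these 4 are not analysed here. Ehhadh was found but lay below the level set for testing, which left 28 tested genes.

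Expression was profiled on 6 single-colour Affymetrix arrays, all from C2C12, an immortalized line of mouse myoblasts that fuse into myotubes when serum is lowered. All cultures were differentiated in 2% horse serum, received a locked nucleic acid (LNA) oligonucleotide at 50 nM on day 6, and were harvested 24 h later on day 7. The silenced group (3 arrays) received an LNA against miR-382-5p, a microRNA, and the control group (3 arrays) received negative control A. Both groups are 1 cell line, and no label states that the arrays of a group are from separate cultures. The p-values therefore reflect only how these arrays vary, which may be technical. The study's title asks about mitochondrial protein balance and stress in muscle cells, and fatty acid oxidation takes place largely in mitochondria.

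Long-chain fatty acids enter a muscle cell with the help of membrane and binding proteins, are activated to acyl-CoA, and cross the inner mitochondrial membrane as carnitine esters. In the matrix each round of beta-oxidation runs through a dehydrogenase, a hydratase, a second dehydrogenase and a thiolase, and releases acetyl-CoA. The electron transfer flavoprotein passes the electrons of the first step to the respiratory chain. Very long chains are shortened in peroxisomes first. Many of these genes are known targets of the nuclear receptors of the PPAR family.

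The oligonucleotide of the silenced group is directed at miR-382-5p, whose mature sequence (RefSeq, GRCm38.p6, chr12:109733781-109733802, plus strand) is shown with its seed, bases 2 to 8, in capitals.

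mmu-miR-382-5p: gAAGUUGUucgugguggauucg

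Values are RMA log2 levels. They carry the strength of each probe set, so levels of different genes are not ranked against each other. The arrays' medians lay between 4.21 and 4.27, and genes with a mean above 3.87, the 40th percentile, were tested (11292 in all). All 21 myotube markers, Myh3 and Acta1 among them, lay above that level, as did 13 of 14 myoblast and 9 of 12 fibroblast markers. Myogenic cells can themselves express some of the last 2 groups. Of 11 adipocyte markers, Pparg and Cebpa lay above it, while Adipoq (2.86 ± 0.14 in control), Plin1 (3.18 ± 0.31) and Fabp4 (2.56 ± 0.10) were among the 9 below. Only 1 of 9 hepatocyte markers and 3 of 10 endothelial markers lay above it. The myotube markers' mean level per array was 9.97 to 10.09 in control and 10.10 to 10.34 in silenced arrays. Of these 21 markers, 18 had a higher mean after silencing (median 0.19), and 8 were higher and 0 lower at an unadjusted p under 0.05 (background 2.83% and 1.97%), with 0 called by limma. The mean level of the myoblast markers was 7.73 to 7.93 and 7.69 to 7.87. The adipocyte markers ranged from 3.50 to 3.52 and from 3.46 to 3.63, and the fibroblast markers from 7.46 to 7.80 and from 7.39 to 7.69. The part of these shifts in the results was not tested. In bulk RNA, fewer cells of a type and less RNA per cell cannot be told apart.

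Between silenced and control arrays the differences of the 28 genes were small and lay in both directions. The thiolase subunit Hadhb was 1.18-fold lower and the flavoprotein oxidoreductase Etfdh 1.15-fold lower in silenced arrays, while the short-chain dehydrogenase Acads was 1.14-fold higher, and none of these passed the test over all genes. Differences ran from -0.29 for Cd36 to 0.20 for Acsl6, with a median of -0.055 against 0.0089 over all tested genes. A lower mean in silenced arrays was found for 17 of the 28 genes and a higher one for 11, where 47.3% of all tested genes had a lower mean. The 28 genes' median difference was -0.048, -0.00028 and -0.088 within replicate numbers 1, 2 and 3. It rested on single arrays: it was -0.0069 without silenced replicate 1, -0.0028 without control replicate 3 and -0.11 without control replicate 1.

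No gene of the 28 was called by limma at an adjusted p under 0.05, where 0% of all tested genes were called. Their adjusted p lay between 0.871 and 0.996, and the smallest over all genes was 0.487. At an unadjusted p under 0.05 there were 3 of the 28, or 10.7%, against a background of 4.8%. Of these, 2 were lower in silenced arrays (Hadhb and Etfdh, background 1.97%) and 1 was higher (Acads, background 2.83%). These shares rest on 1 to 3 genes. The count of 3 fell to 0 without silenced replicate 3 or control replicate 3 and to 1 without silenced replicate 1. With the replicate number as a block, Cd36 and Fabp3 joined them, giving 5 of 28 (17.9%) at an unadjusted p under 0.05 where the background was 10.3%. The block called none at the adjusted threshold (background 0%), with a smallest adjusted p of 0.464 among the 28 and 0.421 over all genes.

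The 3 silenced values lay wholly below the 3 control values for Hadhb, Etfdh, Acaa2 and Acadm, 4 of 28 where 4.87% of tested genes did so. They lay wholly above for Acads, Cpt1a and Cpt2, 3 of 28 against 6.94%. Paired by number, 9 genes were lower in all 3 pairs (background 15.8%) and 5 were higher in all 3 (background 19.7%). The 95% intervals of the 28 differences reached at most 0.22 to either side of the estimate for the median gene. The narrowest reached 0.17 and the widest, for Acot2, 1.11. Changes within these intervals are not excluded with 3 arrays a group. The intervals are from the fit without a block and before adjustment, so they do not give the smallest change that could be called. For Acot2 the SE was 0.47 in that fit and 0.086 with the number as a block.

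**Figure D1:**
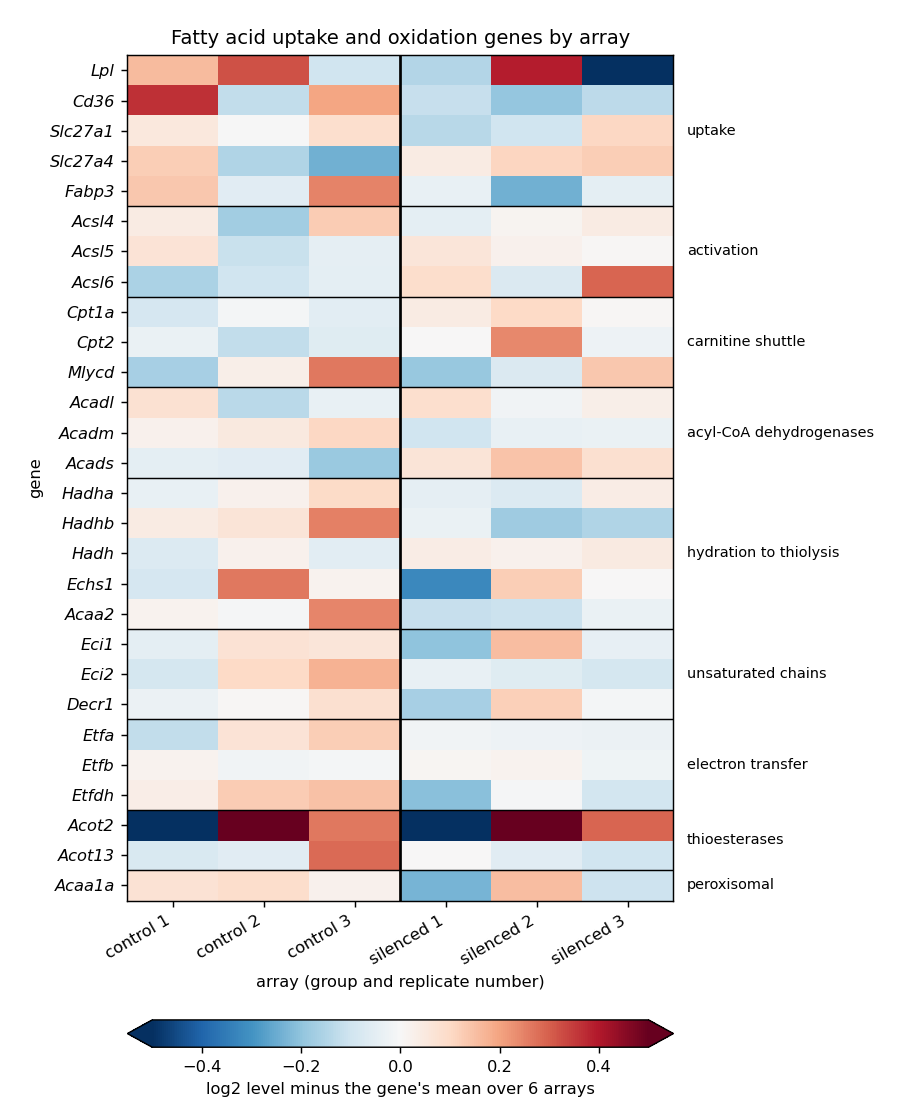
Log2 level of the 28 tested genes on each of the 6 arrays, minus the gene's mean over the 6 arrays, with colours limited to 0.5 either way. Rows are grouped by step and the black line parts control from silenced arrays. Acot2 is low on both arrays numbered 1, while most other rows stay pale.

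**Figure D2:**
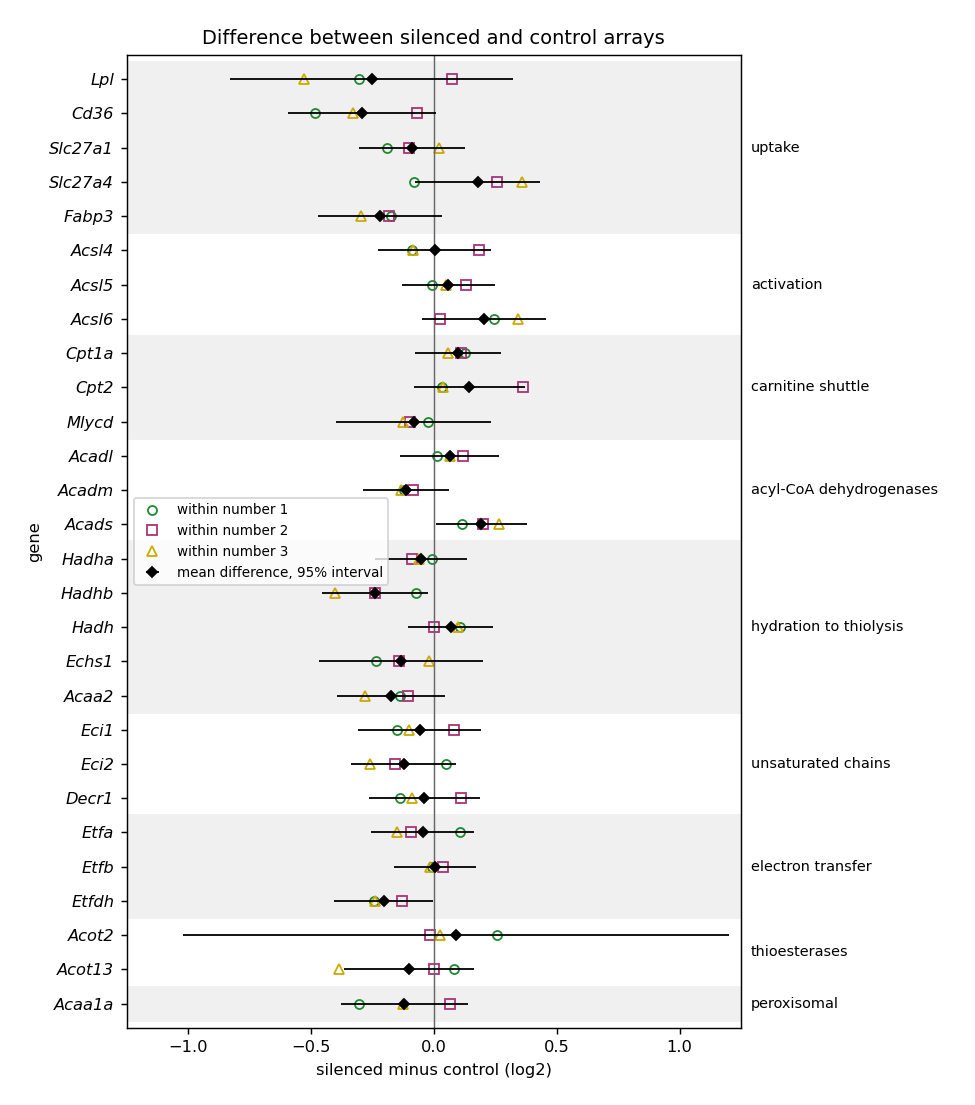
Silenced minus control difference (log2) of each tested gene with limma's 95% interval (black, 3 against 3 arrays), and the difference within each replicate number (open symbols). The interval, from the fit without a block, lies below 0 for Hadhb and Etfdh and above 0 for Acads, before adjustment. It is widest for Acot2.

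The genes of uptake had mostly lower means in silenced arrays, 4 of 5, with a median of -0.22, and 0 were called. Cd36, the membrane translocase for long-chain fatty acids, read 7.92, 7.43 and 7.75 in control and 7.44, 7.36 and 7.42 in silenced replicates 1, 2 and 3. The silenced arrays were close together, and control replicate 2 read as low as they did, so the groups overlapped. The difference of Cd36 was -0.29 ± 0.13 (SE), with limma's unadjusted p = 0.0549 and, with the number as a block, 0.0227 (adjusted p = 0.871 and 0.464). Fabp3, the fatty acid binding protein of heart and muscle, read 8.85, 8.65 and 8.96 in control and 8.67, 8.47 and 8.66 in silenced arrays. It was lower within every number, by -0.17, -0.18 and -0.30, and the arrays numbered 2 were lowest in both groups. Its difference was -0.22 ± 0.11 (SE), with limma's unadjusted p = 0.0796 and 0.0244 with the block. A second probe set for Fabp3 gave a difference of -0.23.

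Lpl, the lipase that frees fatty acids from circulating lipoproteins, read 6.67, 6.83 and 6.41 in control and 6.37, 6.90 and 5.89 in silenced arrays. Its silenced arrays spread over 0.51 (SD) around 6.39, and the difference of -0.25 ± 0.25 (SE) lay within that spread. With the number as a block its SE was 0.12 and limma's unadjusted p = 0.0787 (adjusted p = 0.505). The transport proteins encoded by the Slc27a genes also activate the fatty acids they carry. Slc27a1 read 7.33 ± 0.043 (SD) in control and 7.24 ± 0.13 in silenced arrays. Slc27a4 read 6.28 ± 0.19 and 6.46 ± 0.044, a difference of 0.18 ± 0.11 (SE), and had the only higher mean of the 5 uptake genes. Within numbers 1, 2 and 3 the difference of Slc27a4 was -0.083, 0.26 and 0.36.

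Acyl-CoA synthetases, which activate fatty acids inside the cell, had 3 tested genes, all with a higher mean in silenced arrays and 0 called. Acsl6, known for polyunsaturated substrates, read 5.22, 5.28 and 5.33 in control and 5.47, 5.31 and 5.67 in silenced arrays. Silenced replicate 2 fell among the control values, while the other silenced arrays were higher. Acsl6 differed by 0.20 ± 0.11 (SE), with limma's unadjusted p = 0.0973. Acsl4, which favours arachidonic acid, read 9.68 ± 0.15 in control and 9.69 ± 0.046 in silenced arrays; the difference was 0.0037 with a 95% interval of -0.23 to 0.23. Acsl5 read 7.74 ± 0.089 and 7.80 ± 0.029, with an interval of -0.13 to 0.25.

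In the carnitine shuttle the transferases had slightly higher levels in silenced arrays and 0 of 3 genes were called. Cpt1a, the outer membrane transferase that sets the pace of entry, read 7.91, 7.98 and 7.94 in control and 8.04, 8.09 and 8.00 in silenced arrays. Every silenced value lay above every control value, by a small margin, with a difference of 0.099 (95% interval -0.076 to 0.27, adjusted p = 0.876 by limma). The muscle form of the same enzyme, Cpt1b, is among the genes not analysed here. Cpt2, the inner membrane transferase, read 7.51, 7.42 and 7.49 in control and 7.55, 7.79 and 7.52 in silenced arrays. Its difference of 0.14 ± 0.10 (SE) came mostly from silenced replicate 2, with 0.36 within number 2 against 0.033 and 0.037 within the others. Mlycd removes malonyl-CoA, the inhibitor of the outer transferase, and read 5.05 ± 0.22 in control and 4.97 ± 0.16 in silenced arrays.

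The acyl-CoA dehydrogenases start each round of oxidation, and 0 of the 3 tested were called, with silenced means below control for 1 and above it for 2. Acads, which acts on short chains, read 8.00, 7.99 and 7.86 in control and 8.11, 8.19 and 8.13 in silenced arrays. The groups of Acads did not overlap, and its difference of 0.19 ± 0.079 (SE) had limma's unadjusted p = 0.0441 and an adjusted p of 0.871. Acadm, which acts on medium chains, read 9.42, 9.44 and 9.50 in control and 9.29, 9.36 and 9.36 in silenced arrays. Its groups did not overlap in the opposite direction, with a difference of -0.11 (95% interval -0.29 to 0.061). Acadl, which acts on long chains, read 9.37 ± 0.10 and 9.43 ± 0.051, with a difference of 0.065 (-0.14 to 0.27).

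Among the enzymes from hydration to thiolysis, 4 of 5 had a lower mean in silenced arrays, with a median of -0.13 and 0 called. Hadha and Hadhb encode the subunits of the trifunctional protein of the inner membrane, Hadhb carrying the thiolase. Hadhb read 8.66, 8.68 and 8.87 in control and 8.59, 8.44 and 8.47 in silenced arrays. All silenced values lay below all control values, closest within number 1. Its difference was -0.24 ± 0.092 (SE), with limma's unadjusted p = 0.0343, the smallest of the 28 genes, and an adjusted p of 0.871. A second probe set of Hadhb gave -0.23. Hadha read 10.15, 10.20 and 10.28 in control and 10.14, 10.11 and 10.22 in silenced arrays, with overlapping groups and a difference of -0.053 (95% interval -0.24 to 0.13). The interval of Hadhb, -0.45 to -0.023, overlaps that of Hadha, and the difference between the subunits was not tested.

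Hadha and Hadhb lie head to head: in RefSeq their starts are on opposite strands with 272 bases between them, so they share their upstream sequence. It is shown because the partners of 1 complex read from it. These are the 250 bases before the start of Hadhb (GRCm38.p6, chr5:30155003-30155252, plus strand), with the 228 bases that are also in the Hadha window in capitals.

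Hadhb: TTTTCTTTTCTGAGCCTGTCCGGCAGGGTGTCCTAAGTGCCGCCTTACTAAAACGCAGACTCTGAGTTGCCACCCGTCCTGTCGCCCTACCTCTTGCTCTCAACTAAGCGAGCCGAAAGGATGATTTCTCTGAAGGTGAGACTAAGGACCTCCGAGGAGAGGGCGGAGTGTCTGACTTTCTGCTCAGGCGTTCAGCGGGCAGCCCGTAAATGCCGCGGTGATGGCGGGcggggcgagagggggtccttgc

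Acaa2, the general thiolase of the matrix, read 9.21, 9.19 and 9.44 in control and 9.08, 9.08 and 9.16 in silenced arrays. The silenced values lay below the control values with no overlap, and the difference of -0.17 ± 0.094 (SE) did not pass limma (adjusted p = 0.871). Echs1, the short-chain enoyl-CoA hydratase, read 8.51, 8.86 and 8.61 in control and 8.27, 8.72 and 8.60 in silenced arrays, and the arrays numbered 1 were the lowest of both groups. Its silenced minus control difference was -0.13 ± 0.14 (SE). Hadh, the dehydrogenase for medium and short chains, read 9.41 ± 0.048 and 9.48 ± 0.012, with a difference of 0.068 (95% interval -0.10 to 0.24).

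The enzymes that handle double bonds had lower means in silenced arrays in 3 of 3 cases, all small, and 0 were called. The isomerase gene Eci2 read 8.64 ± 0.14 in control and 8.51 ± 0.024 in silenced arrays; the difference was -0.12 (95% interval -0.34 to 0.091). Its partner Eci1 read 6.77 ± 0.068 and 6.71 ± 0.18. The dienoyl-CoA reductase gene Decr1 read 8.16 ± 0.056 and 8.12 ± 0.14. Leaving out silenced replicate 1 turned the sign of Eci1 (to 0.028) and Decr1 (to 0.035).

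Of the 3 electron transfer genes, silenced means were below control for 2 and above it for 1, and 0 were called. Etfdh, which hands electrons of the flavoprotein to ubiquinone, read 9.30, 9.39 and 9.41 in control and 9.05, 9.26 and 9.17 in silenced arrays. The groups did not overlap, and both arrays numbered 1 were the lowest of their group. Its difference of -0.20 ± 0.086 (SE) had limma's unadjusted p = 0.0484, and 0.0308 with the block (adjusted p = 0.871 and 0.464). Etfb read 8.37 ± 0.020 in control and 8.38 ± 0.022 in silenced arrays; the difference was 0.0054 (95% interval -0.16 to 0.17). Etfa read 8.16 ± 0.13 and 8.12 ± 0.0063, with an interval of -0.25 to 0.16.

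In peroxisomes, the thiolase gene Acaa1a read 5.24 ± 0.033 in control and 5.12 ± 0.20 in silenced arrays; the difference was -0.12 (95% interval -0.38 to 0.14). The bifunctional enzyme gene Ehhadh read between 2.58 and 3.31 on the 6 arrays, below the level set for testing. Acot13, a thioesterase that splits acyl-CoA, read 8.76 ± 0.20 and 8.66 ± 0.052, and control replicate 3 alone (8.99) stood above the other arrays. The other thioesterase gene, Acot2, differed by 0.089 between groups, with a 95% interval of -1.02 to 1.20 in the fit without a block. Within numbers 1, 2 and 3 its difference was 0.26, -0.016 and 0.026. With the number as a block its SE was 0.086 and limma's unadjusted p = 0.337 (adjusted p = 0.691).

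**Figure D3:**
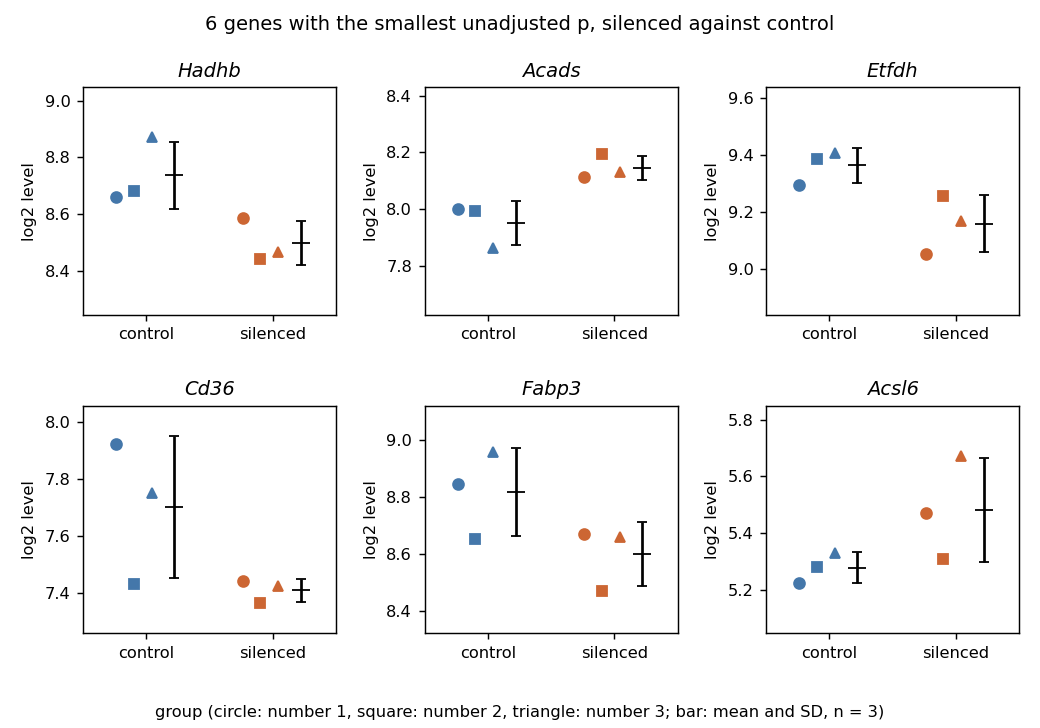
Log2 level on each array for the 6 genes with the smallest unadjusted p between silenced and control arrays, with mean and SD (n = 3) beside each group. The groups are apart for Hadhb, Acads and Etfdh and overlap for Cd36, Fabp3 and Acsl6.

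Replicate number separated Acot2 far more than silencing separated any of the 28 genes. Acot2, a matrix thioesterase that releases free fatty acids from acyl-CoA, read 9.28 on control replicate 1 and 9.53 on silenced replicate 1. It read 10.88 and 10.54 on control replicates 2 and 3 and 10.87 and 10.57 on silenced replicates 2 and 3. Both arrays numbered 1 were thus below the other 4 arrays of the 2 groups, and the mean was 2.48-fold lower on number 1 (-1.31 ± 0.091, SE, log2). In an F test over the 3 numbers with group in the model (limma), Acot2 had an adjusted p of 0.00647. It was the 1 gene of 28 called, or 3.57%, where 3.12% of all tested genes were called, a share near the background. For the contrast of number 1 with the mean of 2 and 3, 3.57% of all genes were called as lower and 2.92% as higher, and Acot2 (lower) was again the only gene called of the 28. Without silenced replicate 3 or control replicate 3 the adjusted p of Acot2 was 0.0520 or 0.0510, just past the threshold, at differences of -1.34 and -1.29. The labels do not say what the replicate number stands for. Markers of other cells moved with it: of 9 tested fibroblast markers, Dcn, Lum and Dpt were called and lower on number 1, with Dpt at 6.33 and 6.47 there and at 7.43 to 7.95 on the other arrays. Of 13 tested myoblast markers, Cd34 was called and lower on number 1. Id2 and Top2a were also called, and were highest on number 1 and lowest on number 3 in both groups. Of 21 myotube markers, 1 was called, Myh4, where number 3 stood above numbers 1 and 2. Myh4 read 9.84, 9.96 and 10.44 in control and 10.19, 10.19 and 10.9 in silenced replicates 1, 2 and 3. Their part in the difference of Acot2 was not tested.

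Acot2 has near-identical relatives in its gene cluster, so its probe set may also pick up their transcripts, and its values are uncertain to that extent. The probe set of Acot1 read 3.58, 3.78 and 3.87 in control and 3.65, 3.65 and 3.91 in silenced arrays, below the level set for testing. The 250 bases before the Acot2 start (RefSeq, GRCm38.p6, chr12:83987611-83987860, plus strand) are shown because it was the 1 gene of the 28 called between numbers. They hold the E-box form CAGCTG, a motif of myogenic factors, in capitals. Other forms of the E-box were not searched for or marked.

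Acot2: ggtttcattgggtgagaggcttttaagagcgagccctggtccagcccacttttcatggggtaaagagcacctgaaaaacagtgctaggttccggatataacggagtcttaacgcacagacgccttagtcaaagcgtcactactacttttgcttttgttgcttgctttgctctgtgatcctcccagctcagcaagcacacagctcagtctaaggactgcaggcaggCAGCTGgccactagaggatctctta

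The other 27 genes had a difference between number 1 and the mean of 2 and 3 from -0.30 to 0.19, and their adjusted p in the F test was 0.0983 or more. Echs1 was lower on number 1 by -0.30 ± 0.084 (SE) and Mlycd by -0.27 ± 0.078 (SE), with adjusted p of 0.148 and 0.137 in the F test. Mlycd read 4.84, 5.04 and 5.27 in control and 4.82, 4.94 and 5.14 in silenced arrays, the same order of numbers in both groups. Lpl (adjusted p = 0.0983) was high on number 2 and low on number 3 in both groups, and number 1 lay between them. Eci1 (adjusted p = 0.379) read 6.69, 6.81 and 6.80 in control and 6.54, 6.89 and 6.70 in silenced arrays, lowest on number 1 in both groups. Fabp3 had an adjusted p of 0.290. The median over the 28 genes was -0.054, against 0.0053 over all tested genes, with 19 genes lower and 9 higher on number 1.

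The upstream bases of Echs1 (RefSeq, GRCm38.p6, chr7:140116422-140116671, minus strand) are shown because it was the second lowest of the 28 genes on number 1. The capitals mark a match to the CEBP-ATF response element, a motif bound by stress factors such as ATF4. Echs1 was not called between numbers, and of the 24 tested genes with a window it alone held this motif.

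Echs1: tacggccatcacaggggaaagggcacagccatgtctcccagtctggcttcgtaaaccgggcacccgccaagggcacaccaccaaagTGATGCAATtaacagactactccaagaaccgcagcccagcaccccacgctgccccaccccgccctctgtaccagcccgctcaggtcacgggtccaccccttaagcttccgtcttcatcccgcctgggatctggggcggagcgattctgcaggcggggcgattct

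RefSeq start windows, 250 bases before to 50 after a start, were matched for 24 of the 28 tested genes by symbol and searched on both strands. The CEBP-ATF element TGATGNAAT was in the window of 1 of the 24, Echs1, and in 1.08% of all 27025 genes with a window (0.965% of 32851 windows). The E-box CAGCTG was in those of 6 (Slc27a1, Acsl4, Acsl6, Cpt1a, Mlycd and Acot2) and in 18.3% of all genes (16.3% of windows). The ERR element TCAAGGTCA was in that of Acsl6 and in 0.466% of all genes (0.423% of windows). The PPAR element AGGTCANAGGTCA was in none of the 24 and in 0.0481% of all genes (0.0396% of windows). It ends in the same 6 letters as the ERR element. Other forms of the PPAR element were not searched for. A form this rare could hardly be met among 24 genes, so its absence shows nothing about them. A match is a description of these letters and not a bound site.

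**Figure D4:**
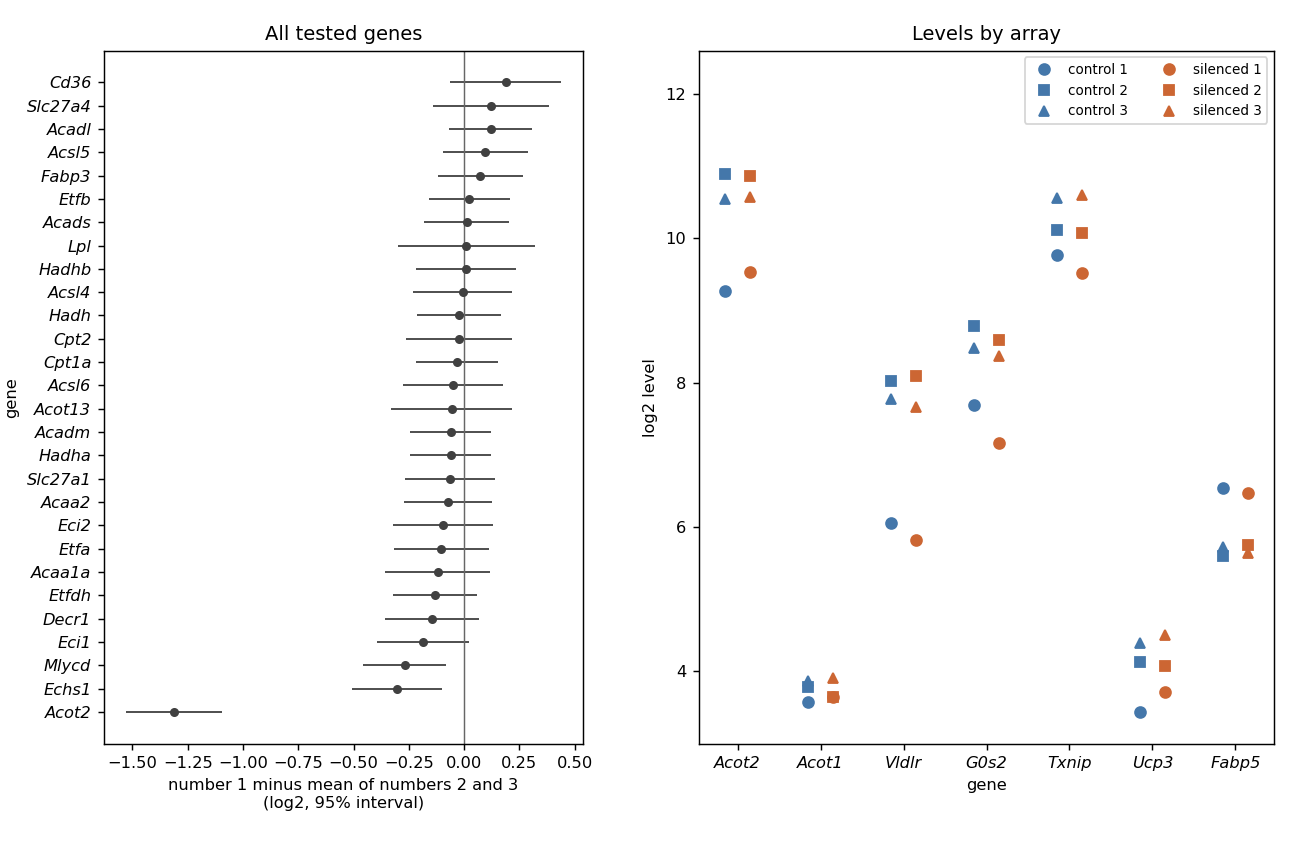
Left, the difference between arrays numbered 1 and the mean of numbers 2 and 3 (log2, limma's 95% interval) for the 28 tested genes, in order of size. Right, log2 levels by array of Acot2, its relative Acot1 and the lipid genes called between numbers, where Acot2, Vldlr, G0s2, Txnip and Ucp3 are low and Fabp5 is high on both arrays numbered 1.

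Other genes of lipid handling were read from lists drawn up by role, and no list had a gene called between silenced and control arrays by limma. Their counts at an unadjusted p under 0.05 stand beside 1.97% of all tested genes lower and 2.83% higher at that level, and each rests on 0 to 2 genes. Of 23 tested regulators of fatty acid oxidation, 1 was lower and 1 higher at an unadjusted p under 0.05, with a median of 0.0060. Prkaa2, a catalytic subunit of AMPK, which promotes fatty acid entry into mitochondria, read 6.03, 6.16 and 6.23 in control and 6.73, 6.39 and 6.66 in silenced arrays. Sirt1, a deacetylase of oxidative metabolism, read 6.90, 6.75 and 6.89 in control and 6.19, 6.49 and 6.55 in silenced arrays. Both pairs of groups were apart, in opposite directions (adjusted p = 0.871 for each).

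Among 27 further genes of carnitine and acyl-CoA handling the median was -0.052, with 1 gene lower at an unadjusted p under 0.05. This was Acat1, which acts in the last step of ketone body use, at 9.62 ± 0.053 in control and 9.42 ± 0.11 after silencing. The thioesterase gene Acot9 had the next smallest p, at 9.55 ± 0.058 and 9.36 ± 0.14. Of 15 further peroxisomal genes, 1 was higher at that level, with a median of 0.0044. Cat, encoding catalase, read 10.34 ± 0.11 in control and 10.55 ± 0.0036 in silenced arrays. Decr2, the peroxisomal dienoyl-CoA reductase, read 6.02 ± 0.086 and 6.26 ± 0.16.

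Lipid droplet and lipolysis genes had 2 of 19 higher and 0 lower at an unadjusted p under 0.05, with a median of 0.0086. Lmf1, a factor needed to mature lipoprotein lipase, read 8.53 ± 0.11 in control and 8.78 ± 0.076 in silenced arrays. The mean of Lpl itself was lower in silenced arrays. Cideb, a lipid droplet protein, read 4.34 ± 0.029 and 4.61 ± 0.15. Of 10 tested PPAR target genes of muscle, 0 passed at that level and the median was -0.069, but 5 genes of that list are also among the 33. Fabp3 and Acadm had its smallest p.

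Between replicate numbers, 5 genes of these lists were called by the F test. They were 3 of the 10 PPAR targets, 1 of the 19 droplet genes and 1 of the 27 carnitine and acyl-CoA genes, read against the same background of 3.12%. Vldlr, a receptor for triglyceride-rich lipoproteins, read 6.05 and 5.82 on number 1 in control and silenced arrays and between 7.66 and 8.09 on the others (-1.95 ± 0.093, SE). G0s2, an inhibitor of the lipase that opens lipid droplets, read 7.69 and 7.17 on number 1 and 8.38 to 8.78 on the others. Ucp3, an uncoupling protein of muscle mitochondria, was lower on number 1 by -0.70 ± 0.094 (SE). Its levels were close to the 3.87 set for testing, at 3.44 and 3.71 on number 1 and 4.08 to 4.51 on the others. Txnip, an arrestin that restrains glucose uptake, was lower by -0.69 ± 0.090 (SE). Fabp5, a fatty acid binding protein, was the 1 gene higher on number 1, by 0.84 ± 0.089 (SE). Their adjusted p was 0.00423, 0.0173, 0.0292, 0.0250 and 0.0223 in that order.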

How the data were processed

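Total RNA of 6 samples (RNA integrity number above 8.0, 100 ng labelled) was hybridized to whole-transcript arrays, per the labels' protocols. The deposited values are log2 levels. The submitters' processing notes name RMA as the method of the authors. The version of RMA and the genome build are not given in the sources consulted. RMA normalizes the arrays to each other and shrinks differences of dim genes; the deposited arrays still differed slightly in their medians and quartiles. The table has 35556 probe sets. The platform annotation names 1 gene for 21218 of them and several for 1881; 21185 of the single-gene sets matched RefSeq (GRCm38.p6) by Entrez identifier. For genes with several sets the brightest was used. Detection calls were not used, and precision is limited by having 3 arrays a group.

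Silenced and control arrays were compared over genes above the 40th percentile by limma (version 3.58.1, R 4.3.3; 2-sided, Benjamini-Hochberg over 11292 genes, threshold 0.05), without a block. Errors beside levels are SD over 3 arrays, and beside differences limma's SE. The code was tested on simulated data. Replicate numbers were compared by an F test with group in the model. Same-numbered arrays deviated together from their group means, with correlations of 0.55, 0.35 and 0.42. Silenced replicate 3 with control replicate 2 gave 0.19, and silenced replicate 2 with control replicate 3 gave 0.063, so these numbers were less distinct. Differences within numbers and fits with a block were therefore added, from the data and not from a label. The main fit did not use the pairing. The genes, lists and contrasts were chosen by role and design, but with earlier results of these data known. Values per array are given for the 6 of the 28 genes with the smallest p in each comparison and for any of the 28 called. They are also given for further genes chosen after their values were seen. From each other list the 2 genes with the smallest p are named, and those called between numbers were named after their values were seen. Cpt1b was to be given but shares its probe set. Alternatives were another filter, normalization, probe set rule, variance prior, a random or fixed block, and each array left out.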

Additional observations from a re-analysis of the deposited data

How the results depend on the processing

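Between silenced and control arrays, 0 of the 28 genes were called under every alternative run, and the smallest adjusted p was 0.448. The number with an unadjusted p under 0.05 was 3 as reported, 5 with the replicate block, 6 with the number as a random block, 1 without a filter and 1 after median centring, and 0 to 4 when single arrays were left out. The median difference lay between -0.11 and -0.0028 when single arrays were left out. The sign of 20 of 28 genes never turned. Repeated quantile normalization turned Acsl4 to -0.024, and leaving out both arrays numbered 1, an alternative chosen after seeing the data, turned Decr1 to 0.011. Leaving out single arrays turned 8 genes, with ranges of -0.082 to 0.068 for Acsl4, -0.11 to 0.035 for Decr1, -0.15 to 0.028 for Eci1, -0.39 to 0.48 for Acot2, -0.0028 to 0.018 for Etfb, -0.17 to 0.015 for Acot13, -0.12 to 0.0047 for Etfa and -0.19 to 0.028 for Mlycd. Between replicate numbers, 352 genes were called as reported, 58 without a filter, 847 with a filter at the 60th percentile, 1090 with a trended and robust prior, and 17 to 1070 when single arrays were left out. Of the 28 genes, 1 was called as reported and 0 to 2 when single arrays were left out. The filter at the 60th percentile and the trended prior each called 3, adding Lpl and Echs1. Lpl on number 1 was -0.0029 after median centring and -0.11 to 0.13 when single arrays were left out. The cause of these shifts was not tested. The fits with fewer arrays have fewer degrees of freedom, and 3 arrays a group limit every comparison.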
